A study of Mus musculus with 2 samples.

Results

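The chemokine receptors described here are the 10 genes Ccr2, Ccr4, Ccr6, Ccr7, Ccr8, Ccr9, Cxcr3, Cxcr4, Cxcr5 and Cxcr6. They were chosen by name, as every probe set whose platform annotation gave 1 gene symbol that was on this list, which selected 18 of 45037 probe sets and 10 of 18193 named genes. Expression was compared on 2 Affymetrix mouse whole-genome arrays. The first held CD8+ T cells that were proliferating 72 h after activation, and the second held naive CD8+ T cells. Both populations were purified from pmel-1 mice, a strain with a transgene for a T cell receptor that sees a melanocyte antigen, so that the activated cells and the naive cells shared this receptor. The sources used here do not name the activating stimulus, the source organ, the age of the mice or the way the cells were purified. Each array received RNA pooled from 4 independent experiments, so each group was a single sample, no spread between experiments can be seen and no test or p-value is given.

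Chemokine receptors are membrane proteins that couple mainly to inhibitory G proteins and steer a cell along a gradient of chemokine, a small secreted attractant. The set of receptors on a T cell helps to set where it goes. Ccr7, with its ligands Ccl19 and Ccl21, draws naive T cells into lymph nodes, Ccr9 draws cells to the small intestine and thymus, and Cxcr3 draws effector cells to tissues that respond to interferon gamma. Their signals are ended by receptor kinases, arrestins and RGS proteins.

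The deposited value of a probe set, the group of short probes that reads 1 transcript, is an intensity on a linear scale that was normalized between the arrays. Intensities of different probe sets are not comparable with each other, so that each receptor is compared only with itself. Values under 100 were raised to 100 before a ratio was formed, and a fold with 1 value under 100 is therefore a lower bound. A probe set was called higher or lower in activated cells when this ratio reached 1.4-fold and the unfloored values were more than 100 apart, which is called the size rule below. Where a gene had several probe sets, the one with the highest mean over the arrays (the brightest) stood for it. A probe set or gene with at least 1 value of 100 or more is called measured.

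Both arrays carried the transcripts of CD8 T cells. Of 9 CD8 T cell marker genes 7 had a probe set of their own. The dimmest of them, Zap70, was at 1171 in activated cells and 1524 in naive cells. Of the 7, 2 were lower in activated cells and 5 did not pass, against 20.6% lower among all measured genes. The lower ones were Cd8b1, at 3554 in activated cells and 7725 in naive cells (2.17-fold lower), and Cd247 (1.53-fold lower). Cd8a was at 4860.0 in activated cells and 6020.4 in naive cells by its brightest probe set, while its other 4 probe sets were called lower, and Cd4, the marker of helper T cells, was under 100 on both arrays. Of 39 markers of other blood cells, 20 were under 100 on both arrays and so not measured. Of the rest, 10 were lower, 3 were higher and 6 did not pass, against 20.6% lower and 23.7% higher among all measured genes. The lower ones were Cd22 and Cd79b (B cells), Jchain (plasma cells), Csf1r and Lyz2 (monocytes or macrophages), H2-Aa and H2-Ab1 (dendritic cells), Klre1 and Tyrobp (NK cells) and Ikzf2 (regulatory T cells). H2-Aa, a chain of MHC class II, was at 83.0 in activated cells and 2007 in naive cells by its brightest probe set (at least 20.1-fold lower), and 3 of its 4 probe sets were called. Jchain, which links antibody units, was at 45.2 in activated cells and 1768 in naive cells (at least 17.7-fold lower). The higher ones were Xbp1 and Sdc1 of the plasma cell list and Il2ra, listed for regulatory T cells and known on any activated T cell. Sdc1 was called by only 1 of its 4 probe sets. The part of other blood cells in the receptor differences was not tested. The median log2 ratio of all measured genes was 0.01.

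Of the 10 receptors, 7 were lower in activated cells and none was higher by the size rule, while Ccr4 and Ccr6 did not pass and Ccr8 was under 100 on both arrays. Of the 9 measured receptors 7 were thus lower, while across all 9842 measured genes 20.6% were called lower and 23.7% higher. By probe set, 11 of the 15 measured were lower, none was higher and 4 did not pass. Among all 19250 measured probe sets, 19.3% were called lower and 21.9% higher. The other 3 of the 18 receptor probe sets were under 100 on both arrays. The median log2 ratio of the 9 measured receptor genes was -0.96. The 7 lower genes were Ccr9, Cxcr6, Cxcr5, Ccr2, Ccr7, Cxcr3 and Cxcr4, and their sizes ranged from at least 44.2-fold for Ccr9 to 1.41-fold for Cxcr4. Fewer cells that carry a receptor and less of its RNA per cell cannot be told apart in these pools. With a minimum of 2-fold in place of 1.4-fold, 4 receptors were lower, namely Ccr9, Cxcr6, Cxcr5 and Ccr2, against 9.19% of measured genes, and again none was higher, against 12.1%.

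**Figure D1:**
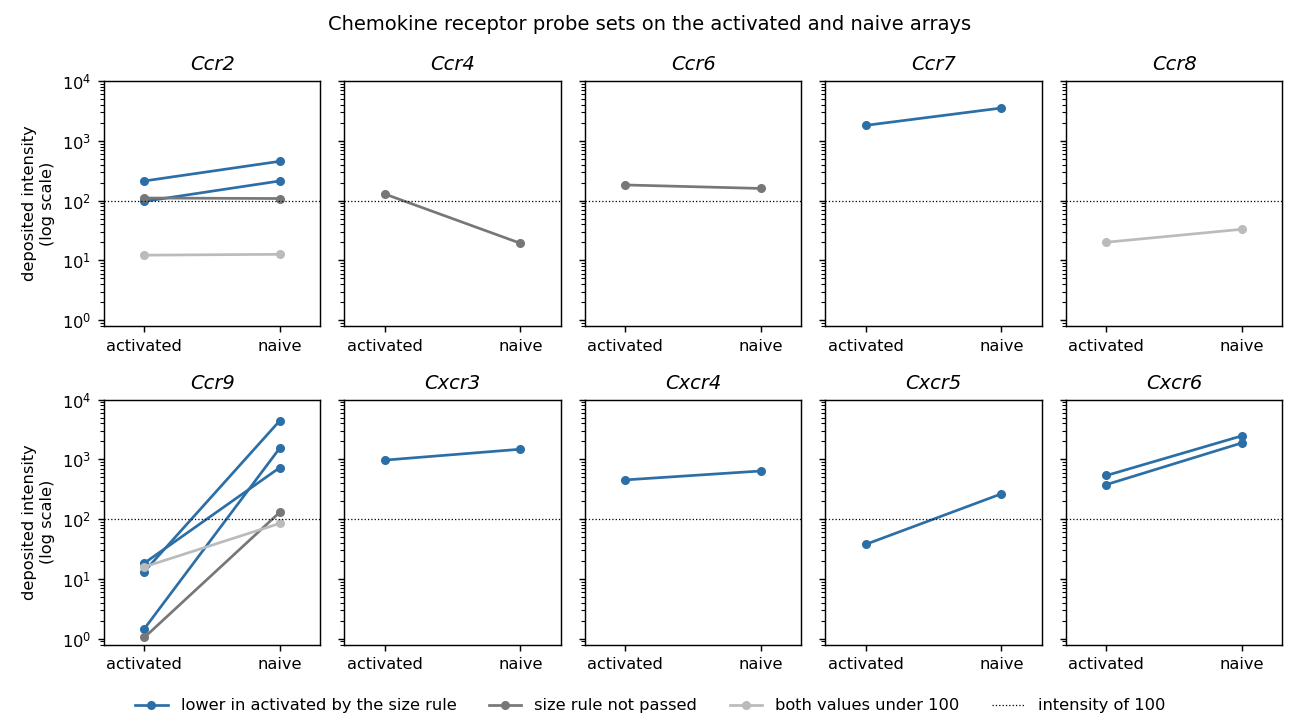
Deposited intensity (log axis) of the 18 probe sets in 1 panel per receptor, with the activated array on the left and the naive array on the right. Each line is 1 probe set, its colour gives the call by the size rule, and the dotted line marks an intensity of 100. All 5 Ccr9 lines and both Cxcr6 lines climb to the naive side, and the Ccr4 line runs the other way.

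The sequences before the annotated start are shown for 4 of the lower receptors, so that the letters just upstream of genes that differed the same way can be read. They are the lower receptors for which the RefSeq promoter table of GRCm38.p6 held a window of 250 bases outside the annotated span of the gene. The table matched 8 of the 10 receptors. The windows were chr9:123766961-123767210 on the plus strand for Ccr9, chr9:123806227-123806476 on the plus strand for Cxcr6, chrX:101734148-101734397 on the minus strand for Cxcr3 and chr1:128592300-128592549 on the minus strand for Cxcr4. Each is printed 5′ to 3′ on the strand of its gene and ends at the base before the start. Capitals mark the letters CACCC, a core that KLF factors are known to bind, and TGTGGT, a core of RUNX sites, on either strand.
Ccr9: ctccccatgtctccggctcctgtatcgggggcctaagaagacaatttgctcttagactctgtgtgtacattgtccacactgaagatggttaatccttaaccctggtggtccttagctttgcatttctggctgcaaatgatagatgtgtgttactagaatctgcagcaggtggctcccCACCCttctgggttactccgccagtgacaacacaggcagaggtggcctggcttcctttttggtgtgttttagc
Cxcr6: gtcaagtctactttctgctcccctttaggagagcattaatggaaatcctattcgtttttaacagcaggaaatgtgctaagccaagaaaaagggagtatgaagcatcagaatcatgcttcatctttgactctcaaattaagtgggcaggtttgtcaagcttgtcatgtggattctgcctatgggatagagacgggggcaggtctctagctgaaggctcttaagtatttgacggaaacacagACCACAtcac
Cxcr3: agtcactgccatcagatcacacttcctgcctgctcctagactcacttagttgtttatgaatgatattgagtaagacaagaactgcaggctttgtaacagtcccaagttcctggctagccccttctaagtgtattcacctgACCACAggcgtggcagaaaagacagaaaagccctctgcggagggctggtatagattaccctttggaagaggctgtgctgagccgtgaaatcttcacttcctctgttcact
Cxcr4: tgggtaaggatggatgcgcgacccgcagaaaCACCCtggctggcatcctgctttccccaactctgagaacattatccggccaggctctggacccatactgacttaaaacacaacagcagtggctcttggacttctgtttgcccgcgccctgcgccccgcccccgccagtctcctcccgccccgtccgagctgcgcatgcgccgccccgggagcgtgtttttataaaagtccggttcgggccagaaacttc

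CACCC was found in the Ccr9 window, with its first base at -73 from the start, and in the Cxcr4 window at -219. The same letters were in 52% of 32851 promoter windows of this length. TGTGGT was found on the opposite strand at -10 in the Cxcr6 window and at -110 in the Cxcr3 window, against 14% of all windows. The search also covered TGANTCA, the core of AP-1 sites (6.75% of all windows), and GGAAAA, which holds the core of NFAT sites (20.4% of all windows), and neither was in the 4 windows. The E-box letters CANNTG were in the windows of Ccr9, Cxcr6 and Cxcr3, and in 66.2% of all windows. All searches covered both strands, and no matches overlapped in these 4 windows. The share of G and C was 61.2% in the Cxcr4 window, 50.4% for Ccr9, 48% for Cxcr3 and 43.6% for Cxcr6.

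Ccr9, the receptor for Ccl25, had the largest difference among the receptors, and all of its 5 probe sets had a lower deposited value in activated cells. Probe set 1427419_x_at was at 13.3 in activated cells and 4421 in naive cells (at least 44.2-fold lower). Probe set 1421920_a_at was at 1.47 in activated cells and 1542 in naive cells (at least 15.4-fold lower), and 1421919_a_at at 18.4 in activated cells and 727 in naive cells (at least 7.27-fold lower). On the activated array the whole set of Ccr9 probe sets lay between 1.05 and 18.4, near the bottom of the scale, so each of these folds is set by the floor of 100 and not by a measured level. Probe set 1442758_at was at 1.05 in activated cells and 130.3 in naive cells. It differed by more than 100 but, with the floor at 100, its log2 ratio could not go below -0.38 and it did not pass. Probe set 1436065_at was under 100 on both arrays, at 15.9 in activated cells and 84.9 in naive cells. The range of log2 ratios among the 4 measured Ccr9 probe sets, from -5.47 to -0.38, thus follows their brightness on the naive array. With a floor of 50 the brightest probe set was at -6.47 on the log2 scale, with a floor of 200 at -4.47, and the mean over the 4 measured probe sets was -3.16.

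Ccr7, the lymph node homing receptor, was lower but stayed well above 100 in activated cells. Its only probe set was at 1815 in activated cells and 3536 in naive cells (1.95-fold lower, log2 ratio -0.96), just short of a minimum of 2-fold. Both values lay far above 100, so the fold is measured on both sides. The genes S1pr1, Klf2 and Foxo1, known beside Ccr7 in lymph node traffic, were picked after their values were seen, and all 3 were lower. S1pr1, the receptor by which T cells leave lymph nodes, was at 359 in activated cells and 2253 in naive cells (6.28-fold lower). Klf2, a transcription factor known to keep S1pr1 on, was at 1409 in activated cells and 3778 in naive cells (2.68-fold lower). Foxo1, a factor known to act above Klf2 and Ccr7 in T cells, was 3.04-fold lower, with 3 of its 3 measured probe sets lower.

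Cxcr6, the receptor for the membrane chemokine Cxcl16, was lower by both of its probe sets. Probe set 1425832_a_at was at 537 in activated cells and 2467 in naive cells (4.60-fold lower). Probe set 1422812_at was at 378 in activated cells and 1880.05 in naive cells (4.97-fold lower). The probe sets thus gave log2 ratios of -2.20 and -2.31, only 0.11 apart. Probe sets of 1 gene at 100 or more on both arrays differed with a standard deviation of 0.39 in log2 ratio over 3404 genes, a spread between probes and not between samples. Cxcl16 itself was at 143 in activated cells and 281 in naive cells by its brighter probe set (1.97-fold lower), and its other measured probe set did not pass.

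Cxcr3, the receptor for Cxcl9, Cxcl10 and Cxcl11, was at 970.1 in activated cells and 1475 in naive cells by its only probe set (1.52-fold lower). Cxcr4, the receptor for Cxcl12, was at 453 in activated cells and 638 in naive cells, also by 1 probe set (1.41-fold lower). The log2 ratio of Cxcr4 was -0.49, at the edge of the size rule, and that of Cxcr3 was -0.60. Neither gene has a second probe set to set beside it. Cxcr4 was no longer called with a difference minimum of 200.

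Ccr2, the receptor for Ccl2 and related chemokines that is best known on monocytes and effector T cells, was lower by 2 of its 4 probe sets. Probe set 1421186_at was at 213 in activated cells and 455 in naive cells (2.13-fold lower). Probe set 1421187_at was at 97.2 in activated cells and 213 in naive cells (at least 2.13-fold lower). The third, 1460067_at, did not pass, at 111 in activated cells and 108 in naive cells, and the fourth, 1421188_at, was under 100 on both arrays, at 12.2 in activated cells and 12.65 in naive cells. The 2 called probe sets gave the same log2 ratio of -1.09, while the third gave 0.03, so the probe sets of Ccr2 disagreed on whether the gene differed. Of 7 monocyte or macrophage markers 6 had a probe set, of which 2 were lower in activated cells, none was higher and 4 were under 100 on both arrays. Lyz2 was at 21.8 in activated cells and 173 in naive cells, and Csf1r at 345 in activated cells and 642 in naive cells by its brightest probe set. The other measured probe set of Csf1r did not pass, at 206 in activated cells and 236 in naive cells. Among all measured genes, 20.6% were called lower. The part of monocyte or macrophage transcripts in the Ccr2 difference was not tested.

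Cxcr5, the receptor for Cxcl13 that is best known on B cells and follicular helper T cells, was at 37.9 in activated cells and 265 in naive cells by its only probe set (at least 2.65-fold lower). The value in activated cells lay under 100, and with a floor of 200 Cxcr5 was no longer called. Among 8 B cell markers, of which 7 had a probe set, 2 were lower in activated cells, none was higher, 2 did not pass and 3 were under 100 on both arrays. Cd22, the brightest of these markers and above 100 on both arrays, was at 260.8 in activated cells and 397 in naive cells (1.52-fold lower). Cd79b, part of the B cell receptor, was at 40.0 in activated cells and 293 in naive cells, Ms4a1 at 43.9 in activated cells and 136 in naive cells, and Cd79a at 25.4 in activated cells and 112 in naive cells. None of the 7 markers was at the lowest deposited value of 1. Among all measured genes, 20.6% were called lower. The part of B cell transcripts in the Cxcr5 difference was not tested.

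Ccr4, Ccr6 and Ccr8 were not called in either direction, and these are known from T cell subsets and B cells. Ccr4, the receptor for Ccl17 and Ccl22, was at 129 in activated cells and 19.4 in naive cells by its only probe set. The deposited value of Ccr4 was thus 109 units higher in activated cells, but raising the naive value to 100 left a ratio of at least 1.29-fold. With a floor of 50 Ccr4 was called higher, at a log2 ratio of at least 1.37, and likewise with no floor. Ccr6, the receptor for Ccl20, was at 183 in activated cells and 159.8 in naive cells, a log2 ratio of 0.19. Ccr8, the receptor for Ccl1, was at 20.15 in activated cells and 33.2 in naive cells, where no ratio was formed. Foxp3, which defines regulatory T cells, a known site of Ccr4 and Ccr8, was at 65.9 in activated cells and 76.5 in naive cells.

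**Figure D2:**
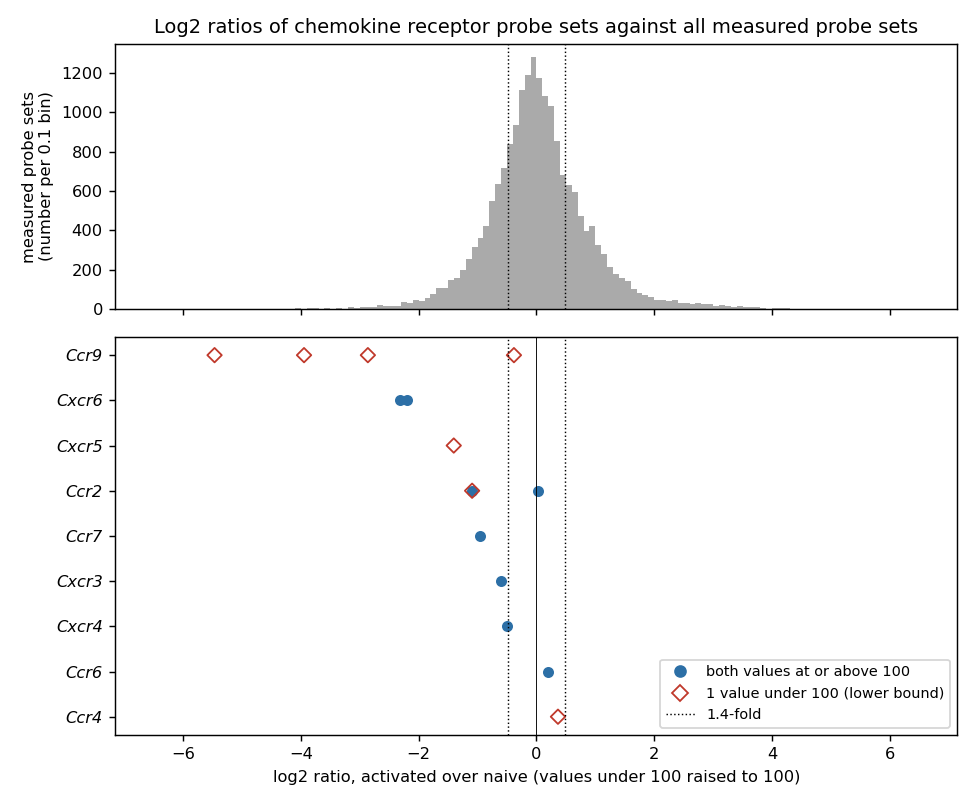
Upper panel, number of measured probe sets (all genes, 19250 in all) per bin of log2 ratio, activated over naive. Lower panel, the measured probe sets of each receptor on the same axis, with filled circles where both values reached 100 and open diamonds where 1 value was under 100, and dotted lines at 1.4-fold. The 2 Cxcr6 probe sets lie together near -2.2, whereas the 4 Ccr9 probe sets spread from -5.47 to -0.38.

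Of the 10 receptors, 6 lie on chromosome 9, and Ccr9, Cxcr6 and Ccr2 belong to a single run of receptor genes there by the order in the RefSeq table. All 3 were lower in activated cells by their brightest probe sets, as given above, although the probe sets of Ccr2 disagreed. The receptor genes between Cxcr6 and Ccr2 with a probe set of their own, namely Xcr1, Ccr1, Ccr1l1 and Ccr3, were under 100 on both arrays, and the highest of them was Ccr1 at 60.8 in activated cells and 55.1 in naive cells. Cxcr6 lies within the annotated span of Fyco1, an autophagy gene. Fyco1 was at 135 in activated cells and 609 in naive cells (4.51-fold lower), close to the 4.60-fold of Cxcr6, and whether transcripts of one gene reach the probes of the other was not tested. Lztfl1, the gene before Ccr9, was at 385 in activated cells and 685 in naive cells (1.78-fold lower), and Slc6a20a before it was under 100 on both arrays. Fyco1, Lztfl1 and Slc6a20a were taken for their position only.

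**Figure D3:**
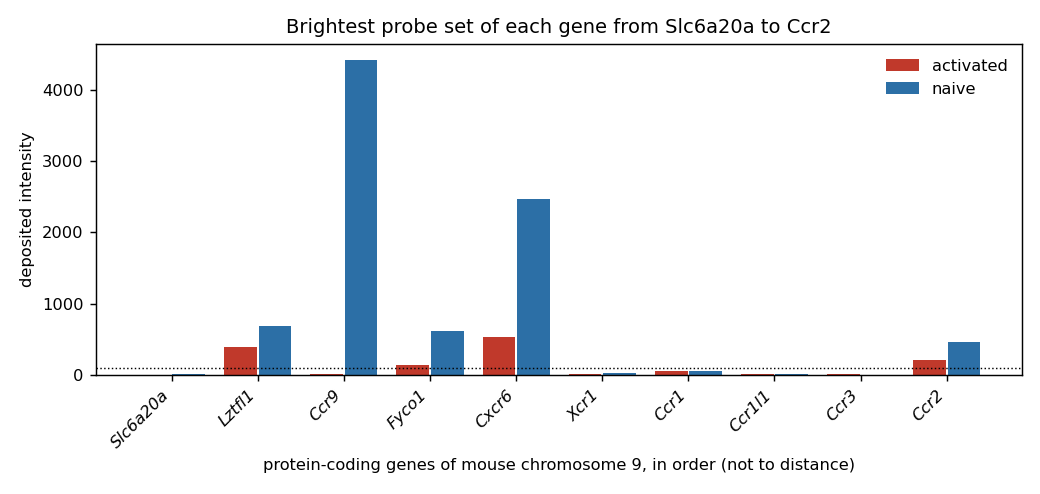
Deposited intensity (linear axis) of the brightest probe set of each gene along a run of mouse chromosome 9, activated array on the left of each pair and naive array on the right, with a dotted line at 100. Bars are to be compared within a gene only. The run was drawn around Ccr9, Cxcr6 and Ccr2, which were already called lower by their brightest probe sets. Of its other genes only Lztfl1 and Fyco1 reached 100, and both were lower, against 20.6% of all measured genes. The receptor genes from Xcr1 to Ccr3 were under 100 on both arrays.

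Receptors outside these 10 were mostly under 100. Of 16 further receptors listed, 14 had a probe set of their own and 3 were measured. Of these 3, 1 was lower and none higher, against 20.6% lower and 23.7% higher among all measured genes. Gpr183, a receptor for oxysterols that positions lymphocytes, was at 463 in activated cells and 890.3 in naive cells by its brighter probe set (1.92-fold lower). Its other measured probe set did not pass. The decoy receptors did not pass, with Ackr1 at 165 in activated cells and 137 in naive cells, and Ackr2 at 135 in activated cells and 120.02 in naive cells. Among 17 ligands of the receptors, 15 had a probe set, 4 were measured, 2 were lower and none was higher, against the same shares. Ccl22, a ligand of Ccr4 known from dendritic cells, was at 34.6 in activated cells and 284 in naive cells (at least 2.84-fold lower). Cxcl13 was at 122 in activated cells and 142 in naive cells, and Cxcl10 at 13.9 in activated cells and 132 in naive cells, and neither passed. Of 7 dendritic cell markers 2 were lower, namely H2-Aa, given above, and H2-Ab1, at 301.9 in activated cells and 701 in naive cells (2.32-fold lower). None was higher, Itgax did not pass and 4 were under 100 on both arrays. The part of dendritic cell transcripts in the Ccl22 difference was not tested.

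The signalling genes downstream of the receptors held calls in both directions. Of 33 genes listed, 30 had a probe set and 28 were measured, of which 11 were lower, 3 were higher and 14 did not pass, against 20.6% lower and 23.7% higher among all measured genes. Their median log2 ratio was -0.29, against 0.01 for all measured genes. Rac2, the Rac GTPase of blood cells, was at 2495 in activated cells and 4871 in naive cells (1.95-fold lower by the brighter of 2 probe sets, both called). Rac1, its widely expressed relative, was at 4759 in activated cells and 3214 in naive cells (1.48-fold higher), although its other measured probe set did not pass. Rap1b, Rap1a, Cdc42 and Rhoa, small GTPases of adhesion and movement, did not pass. By their brightest probe sets the log2 ratios were 0.01, 0.20, 0.39 and -0.03. The 4 probe sets of Cdc42 ranged from -0.23 to 0.39.

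Further signalling genes were named after their values were seen. Dock2, which activates Rac in lymphocytes, was at 1079 in activated cells and 2568 in naive cells by its brightest probe set (2.38-fold lower). It was called by 2 of its 3 probe sets. Grk6, a receptor kinase, was 2.18-fold lower with 3 of 3 probe sets called, and Arrb2, the arrestin that ends receptor signals, was 2.04-fold lower with 2 of 2. The alpha subunit gene Gnai2 was at 1748 in activated cells and 2604 in naive cells (1.49-fold lower), with the other probe set not past the rule, whereas Gnai3 was at 2081 in activated cells and 2182 in naive cells. Gng2, a gamma subunit, was called both ways, higher by its brightest probe set (log2 ratio 1.53) and lower by its other 3, down to -1.07.

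Of the RGS genes, whose products shorten the signal of the G protein, Rgs1, Rgs16 and Rgs2 are given. These 3 were picked after their values were seen, were called higher, and say nothing of the other RGS genes. Rgs1 was at 2468 in activated cells and 287 in naive cells (8.59-fold higher). Rgs16 was at 565 in activated cells and 32.5 in naive cells (at least 5.65-fold higher), with 3 of 3 probe sets called. Rgs2 was called higher by 2 of its 4 probe sets, the brightest of them by 1.54-fold, and the other 2 did not pass, with log2 ratios of 0.40 and -0.17.

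Itga4 and Itgb7, the integrin chains that act with Ccr9 in gut homing, and the other adhesion genes named beside them were also picked after their values were seen. Itga4 was at 506 in activated cells and 1787 in naive cells (3.53-fold lower), and Itgb7 at 1282 in activated cells and 2976 in naive cells (2.32-fold lower). Itgae, the chain that pairs with Itgb7 to hold cells in epithelium, was at 65.7 in activated cells and 2663 in naive cells (at least 26.6-fold lower). Selplg, the selectin ligand, was 1.75-fold lower, and Itgal, a chain of LFA-1, was 1.68-fold lower by 1 of 2 probe sets.

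**Figure D4:**
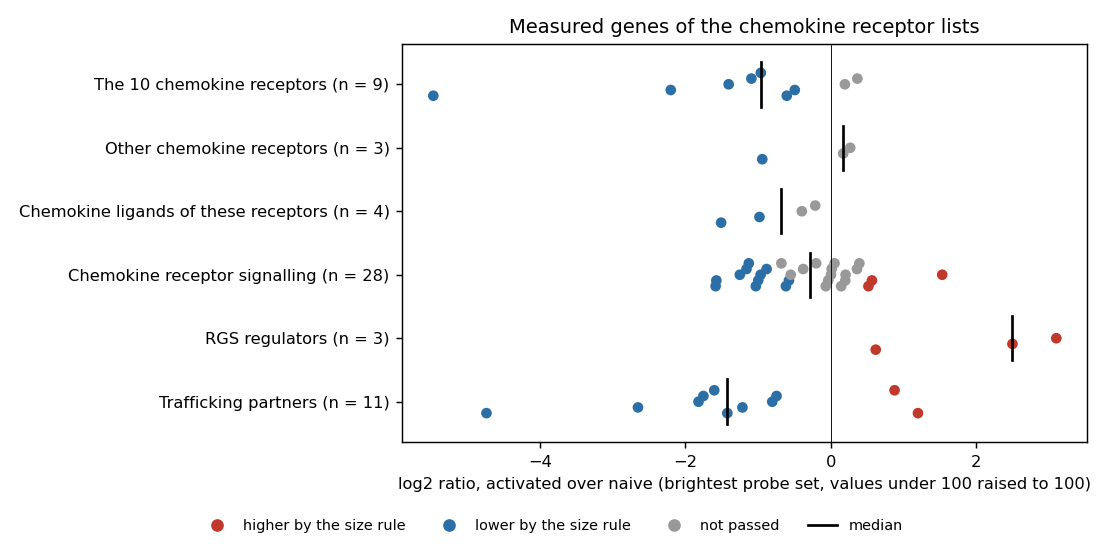
Log2 ratio, activated over naive, of each measured gene (brightest probe set) by list. The receptor list and the lists of related genes fixed with it were chosen with earlier results of these data known. The lists of RGS regulators and trafficking partners were chosen after values were seen. Points are genes coloured by the size rule, n is the number of measured genes and the black line is the median. The receptors have a median of -0.96, and the 3 RGS genes, which were picked after their values were seen, were called higher.

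The remaining marker lists cover further cell types whose transcripts could be in these pools. The NK cell list had 2 of 3 genes lower, against 20.6% of all measured genes. Klre1 was at 214 in activated cells and 397 in naive cells (1.85-fold lower), and Tyrobp at 6.88 in activated cells and 259.5 in naive cells. Ncr1 was under 100 on both arrays, at 27.8 in activated cells and 54.7 in naive cells. NK cells are a known site of Cxcr3 and Cxcr6. In the innate-like or gamma delta T cell list none of 3 was called, and Zbtb16, which defines innate-like T cells that carry Cxcr6, was at 24.3 in activated cells and 46.9 in naive cells. The plasma cell list had 1 lower of 3, Jchain, given above with its values, and 2 higher, Xbp1 and Sdc1, and the regulatory T cell list 1 lower (Ikzf2) and 1 higher of 3. None of 3 CD4 T cell, 3 neutrophil or 2 red blood cell markers was called, and S100a9 and Alas2 were at the lowest deposited value of 1 in activated cells. The part of these cells in the receptor differences was not tested.

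The same 7 receptors were lower after median scaling, quantile normalization and loess, and by the mean over the measured probe sets. They also stayed lower with a difference minimum of 50 and a floor of 50, but these looser settings cannot end a lower call. The scalings were no strict check either. The median log2 ratio of probe sets at or above the floor on both arrays was 0.013 as deposited. It was -0.029 after median scaling, -0.023 after quantile normalization and -0.007 after loess. In the same order, Cxcr4 went from -0.49 to -0.54, -0.59 and -0.57, away from the edge of the rule. A difference minimum of 200 ended the call of Cxcr4, a floor of 200 that of Cxcr5, and a fold minimum of 2 those of Ccr7, Cxcr3 and Cxcr4. The log2 ratios of Ccr9 and Cxcr5 moved with the floor, as their values in activated cells lay under it.

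**Figure D5:**
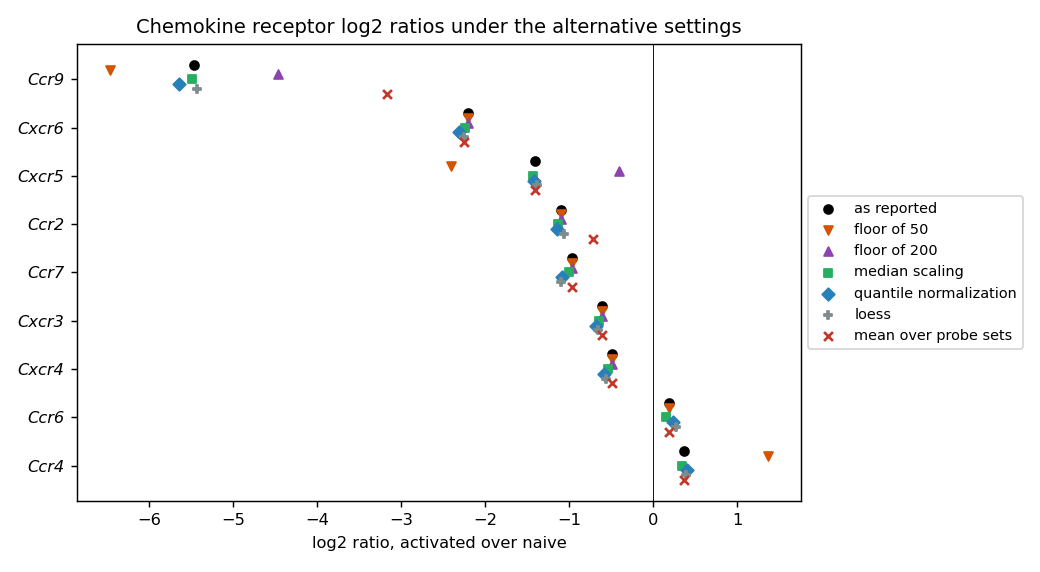
Log2 ratio, activated over naive, of the 9 measured receptors as reported and under 6 alternatives, 1 marker per setting, where a floor of 200 leaves no value for Ccr4 and Ccr6. Ccr9 spans -6.47 to -3.16 and Cxcr5 -2.40 to -0.40, whereas Cxcr6 stays between -2.31 and -2.20.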

How the data were processed

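Total RNA of 2 pools, each from 4 experiments, was hybridised to 1 array per group. The authors deposited 1 intensity per probe set, computed with the difference model of dChip and normalized with its invariant set method, per the series' design text. Present calls were made with GCOS 1.3, per the labels and the design text. They were not used here, nor were dChip's confidence bounds, so the size rule keeps only the study's fold and difference thresholds. The sources used here name no dChip version and no genome build. Difference-model values near background are imprecise, hence the floor of 100, and 57.3% of probe sets had both values under it. With 2 arrays the number of arrays limits the precision.

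Symbols came from the platform annotation. All 10 receptors matched the RefSeq gene table of GRCm38.p6 by Entrez ID, and no probe set with several symbols named a receptor. The receptors and the gene lists were chosen with earlier results of these data known. Genes of the receptor, ligand and signalling lists were named in full where a list had at most 8 measured members and otherwise for the 6 brightest. The size rule was checked on simulated arrays only for bright probe sets with changes well past its fold minimum. The noise there was set by hand. The check therefore says nothing of changes near the edge of the rule, of values under 100 or of real noise between arrays. Alternatives were other fold, difference and floor settings, median, quantile and loess scaling (span 0.4), and probe set means, and the setting without a floor was added after seeing the data. Python 3.11.15, pandas 2.3.3, numpy 2.4.6 and statsmodels 0.14.6 were used.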

Additional observations from a re-analysis of the deposited data

How the results depend on the processing

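The receptor log2 ratios changed sign under none of the alternatives that enter them, namely the floors, the scalings and the probe set means. A floor cannot reverse a sign, and a mean over probe sets differs only where several were measured. The scalings acted on values already normalized between the arrays, so a change of sign was unlikely from the outset. Of 35 receptor log2 ratios that differed at all from the reported one, 29 moved by less than the 0.39 between probe sets of a gene. The other 6 were those of Ccr4 with a floor of 50, Ccr9 and Cxcr5 with floors of 50 and 200, and Ccr9 by the mean over probe sets. Every log2 ratio under the scalings was among the 29, and every log2 ratio that a floor changed was among the 6. With a fold minimum of 2, 4 receptors were lower in place of 7, and 3871 of all probe sets were called in place of 7931, with 2121 higher and 1750 lower. With a floor of 50, 1 receptor gene and 1 receptor probe set, both Ccr4, were called higher, and with no floor, chosen after seeing the data, 1 receptor was called higher. With a difference minimum of 200, 2454 of all probe sets were lower in place of 3707, and Cxcr4 lost its call. A floor of 200 ended the call of Cxcr5. No paired analysis was possible because each group was 1 array. Signals under 100 limit what can be said of Ccr8, of Ccr4 and Cxcr5 on 1 array each, and of the size of the Ccr9 difference.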

Other observations

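Cxcr3, Cxcr6 and Ccr2 are known from effector and memory CD8 T cells, yet all 3 were lower in activated cells by their brightest probe sets. The probe sets of Ccr2 disagreed on whether the gene differed, as given above. Among other genes known from those states, named after their values were seen, directions differed. Tbx21, the T-bet factor known to act on Cxcr3, was at 764 in activated cells and 333 in naive cells (2.30-fold higher). Eomes, its relative, was at 215 in activated cells and 725 in naive cells (3.37-fold lower), with both of its probe sets called. Cd44, an adhesion receptor of experienced T cells, was at 2036 in activated cells and 1108 in naive cells (1.84-fold higher), with 3 of its 3 measured probe sets called. Tbx21 and Cxcr3 thus lay on opposite sides of no difference on these 2 arrays.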
